A study of Mus musculus with 18 samples.

Results

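Mouse embryonic stem cells without GCN2 were set directly against wild-type cells while both were deprived of arginine. The comparison holds the 3 Gcn_Arg libraries and the 3 Wt_Arg libraries, 6 of the 18 libraries of the series, chosen by their group labels, and it was read across 16924 genes that passed a filter on low counts, of 55471 in the joined count table. Gcn_Arg libraries came from E14 cells of genotype Eif2ak4-/- kept for 3 h in SILAC medium that lacked L-Arg, and Wt_Arg libraries came from wild-type E14 cells under the same deprivation. Gcn_Unstarved and Wt_Unstarved, 3 libraries each, were the same genotypes in that medium with every amino acid present, and they show whether a difference was there without starvation. The other 6 libraries were deprived of leucine. They entered the filter, the scaling, the estimate of the spread between replicates and the chromosome 6 values, and no genotype contrast given here uses them. E14 is an established embryonic stem cell line, and all groups were grown on gelatin with serum and leukemia inhibitory factor, plated the day before, and starved with dialyzed serum and lysine in the medium. The labels do not say how many knockout clones were used or that replicates were separate cultures, so p-values measure the spread between these libraries, and the loss of GCN2 cannot be told apart from any other difference between the Gcn and Wt cell populations.

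GCN2 is a protein kinase that is switched on when uncharged transfer RNA builds up or ribosomes stall for want of an amino acid. It phosphorylates the initiation factor eIF2, which lowers general translation and raises translation of the mRNA for ATF4, a transcription factor that pairs with C/EBP proteins at composite promoter elements. The resulting program, the integrated stress response (ISR), includes genes for amino acid synthesis and uptake, aminoacyl-tRNA synthetases, and factors that feed back on eIF2 or on cell growth. Related kinases such as PERK, PKR and HRI feed into the same response from other stresses.

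Eif2ak4, which encodes GCN2, checked the labels. It lies at chr2:118388618-118475234 on the plus strand of GRCm38. It had 6.37, 4.35 and 5.70 CPM (read counts scaled to library size with the TMM factors of edgeR) in the 3 Gcn_Arg libraries, against 28.7, 29.2 and 29 CPM in the 3 Wt_Arg libraries. Every Gcn library was far below every Wt library, and the log2 fold change was -2.41 ± 0.13 (SE). Without starvation it was -2.61 ± 0.13, and the interaction, the genotype difference under starvation minus that without it, was 0.20 ± 0.18 (adjusted p = 0.65). The counts cover the whole gene, so they do not show which part of it was altered, and the remaining reads were not traced further. Of 18 other genes tested within 1 Mb of Eif2ak4, 5 were higher and 2 lower in Gcn_Arg, and Chac1 and Thbs1 were those 2. Over all genes tested, 14.8% were higher and 16.7% lower.

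Arginine-starved cells of the 2 genotypes differed at a large share of genes, and most of those genes already differed in complete medium. The genes whose difference changed with starvation were led by ISR genes, which were far higher in starved Wt cells than in starved Gcn cells. For 36.1% of the starved calls neither the unstarved comparison nor the interaction was called. At an adjusted p under 0.05 by edgeR's quasi-likelihood test with Benjamini-Hochberg adjustment, 2500 genes (14.8%) were higher and 2830 (16.7%) lower in Gcn_Arg than in Wt_Arg, together 31.5% of the genes tested. The 3 and 3 libraries did not overlap in CPM for 43.1% of genes. Without starvation 5548 genes (32.8%) differed between the genotypes, 16.6% higher and 16.2% lower in Gcn. The unstarved comparison uses none of the same libraries, and 3197 genes were called in both in the same direction, which is 60.0% of the starved calls and 57.6% of the unstarved calls, while 44 were called in opposite directions. Across the 16924 genes the starved and unstarved differences had a Spearman correlation of 0.658 and a Pearson correlation of 0.771, given as a description because genes are not independent and each genotype shares its cells. Scaling by library size alone moved the starved calls to 3125 higher and 2362 lower, so that 57.0% in place of 46.9% of calls were higher. The median log2 fold change of all genes was then 0.068, against 0.013 with TMM.

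The interaction divided the starved calls further. It was called for 390 genes (2.3%), of which 105 (0.62%) had a higher and 285 (1.68%) a lower genotype difference with starvation. With library size alone as the scaling it was called for 298 genes upward and 162 downward, a change in the higher share to 64.8% against 26.9%. Its median over all genes was then 0.088, against -0.004 with TMM. Same-numbered libraries of one genotype tended to deviate together, and with the replicate number as a block within genotype, an alternative chosen after seeing the data, the interaction was called for 2505 genes (14.8%), 1000 higher and 1505 lower, among them 389 of the 390 in the same direction. Of the 5330 genes that differed under starvation, 3116 (58.5%) are termed already different here, being called unstarved in the same direction with no call in the interaction. A further 77 were called both ways with a difference that starvation widened, and 4 with one it narrowed. Another 167 opened, being called starved and in the interaction but not unstarved, and 44 reversed, being called unstarved in the other direction. The remaining 1922 (36.1%) are undecided, since neither the unstarved comparison nor the interaction was called for them. With the block within genotype 2840 (53.3%) were already different, 235 widened, 122 narrowed, 840 opened and 1249 (23.4%) were undecided. Differences that opened or widened were mostly downward in Gcn_Arg: 125 of 167 and 71 of 77.

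**Figure D1:**
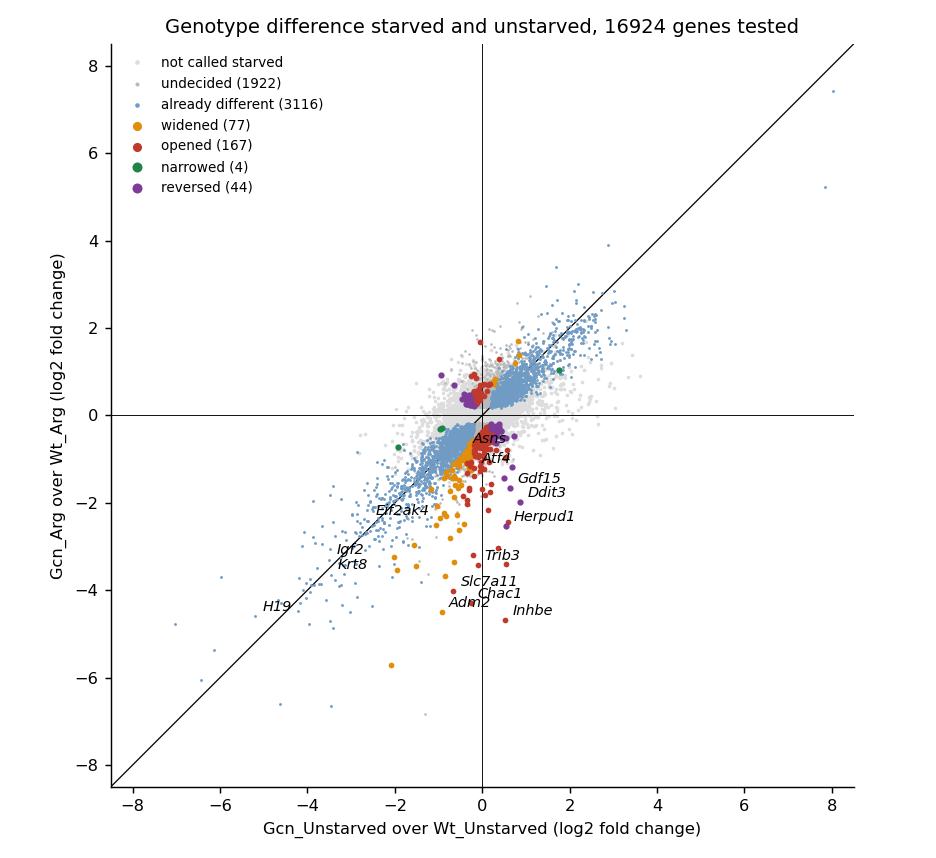
Each point is one of the 16924 genes tested; the horizontal axis is the log2 fold change of Gcn_Unstarved over Wt_Unstarved and the vertical axis that of Gcn_Arg over Wt_Arg, with colors for the classes defined in the text and a line of equality. Krt8, H19, Igf2 and Eif2ak4 lie near the line, while Chac1, Trib3, Inhbe and Ddit3 lie far below it.

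The libraries held between 14777012 and 24059451 assigned counts in Gcn_Arg and between 26001285 and 32710060 in Wt_Arg. The first principal component of the 6 starved libraries took 63% of the variance and separated the genotypes, and the second, with 14.6%, set Gcn_Arg replicate 1 apart from all others. Without the 3 Gcn libraries numbered 1 there were 5545 starved calls and 476 in the interaction. Gm42418, a transcript that overlaps ribosomal RNA, took 0.813% to 2.58% of counts in Gcn_Arg and 0.712% to 1.39% in Wt_Arg, and its part in the results was not tested. The embryonic stem cell markers Pou5f1 (1840 CPM in Gcn_Arg and 2070 in Wt_Arg), Sox2 (804 and 573 CPM) and Zfp42 (1260 and 849 CPM) were abundant in both genotypes.

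The ISR transcription factors separated the starved genotypes as a group. Of 10 listed, 9 were lower in Gcn_Arg and none higher, with a median log2 fold change of -1.32 against 0.01 for all genes tested. Without starvation 3 were higher and 2 lower, with a median of -0.02, and the interaction was called downward for 8. Atf4 mRNA, whose translation GCN2 controls, stood at 270, 277 and 268 CPM in Gcn_Arg, against 608, 626 and 643 CPM in Wt_Arg. The groups were well apart, with a log2 fold change of -1.20 ± 0.09 (adjusted p = 1.15e-09). In complete medium Atf4 had 435, 402 and 385 CPM in Gcn_Unstarved and 529, 377 and 481 CPM in Wt_Unstarved, which overlapped (-0.18 ± 0.09, adjusted p = 0.132). Set against their own unstarved cells, Atf4 fell by 0.58 on the log2 scale in starved Gcn cells and rose by 0.44 in starved Wt cells. Over the list, 6 of the 10 fell and none rose with starvation in Gcn cells, where 33.9% of all genes were called (16.5% higher and 17.5% lower), and 8 rose and 1 fell in Wt cells, where 32.4% were called (17% higher and 15.4% lower).

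Ddit3, which encodes the stress factor CHOP, changed its order between conditions. Its values were 6.97, 9.85 and 9.92 CPM in Gcn_Arg, against 32.5, 36 and 37.3 CPM in Wt_Arg, a log2 fold change of -1.99 ± 0.17. In complete medium they were 15, 16.5 and 15.5 CPM in Gcn_Unstarved, against 11.1, 5.78 and 8.57 CPM in Wt_Unstarved, a log2 fold change of 0.87 ± 0.17 (adjusted p = 0.000474). The Gcn libraries were thus all above the Wt libraries without starvation and all below them with it, and the interaction was -2.87 ± 0.24. Jdp2, a bZIP factor that can partner with Jun proteins, and Cebpg, a dimer partner of ATF4, reversed in the same way, with starved log2 fold changes of -1.44 and -0.20 and unstarved ones of 0.51 and 0.39.

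Atf3, a stress-induced repressor, had 2.52, 3.31 and 3.24 CPM in Gcn_Arg, against 32.9, 32.7 and 33.7 CPM in Wt_Arg. This gap of -3.46 ± 0.20 on the log2 scale was wider than the unstarved one of -1.51 ± 0.21, and the interaction of -1.94 ± 0.29 was called. Cebpb, a C/EBP factor, and Nupr1, a small stress-induced chromatin protein, opened: their starved log2 fold changes were -1.93 and -1.82, and their unstarved ones of -0.34 and 0.07 were not called. Nfe2l1, a regulator of proteasome genes, was lower at 168 CPM in Gcn_Arg and 314 CPM in Wt_Arg. Mlxipl, a glucose-responsive factor, was as far apart unstarved (-0.79) as starved (-0.83). Atf5, an ATF4-related factor, was the member with no call, with a log2 fold change of -0.20 ± 0.09 (adjusted p = 0.0989).

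The ISR effectors had the lowest median of the 32 lists. Of 16 listed, 14 were lower in Gcn_Arg and none higher, the median log2 fold change was -2.58, and 13 were called downward in the interaction. Their summed level was 807 to 908 CPM in the Gcn_Arg libraries and 2040 to 2220 CPM in the Wt_Arg libraries. Without starvation 8 were lower and 3 higher, with a median of -0.28. Chac1, a glutathione-degrading enzyme, had 7.57, 8.69 and 8.55 CPM in Gcn_Arg, against 159, 161 and 169 CPM in Wt_Arg. That was a log2 fold change of -4.30 ± 0.24, while the unstarved libraries overlapped at 28.6, 22.6 and 18.7 CPM in Gcn_Unstarved and 37.9, 17.7 and 28.2 CPM in Wt_Unstarved (-0.27 ± 0.21, adjusted p = 0.376). Chac1 was called in the interaction at -4.03 ± 0.32 (adjusted p = 2.46e-06).

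Trib3, a pseudokinase that restrains ATF4 and CHOP, followed the same course. It had 15.5, 18.2 and 19.4 CPM in Gcn_Arg, against 173, 195 and 202 CPM in Wt_Arg. Unstarved levels were 68.1, 58.4 and 55.9 CPM in Gcn_Unstarved and 81.2, 47.6 and 67.4 CPM in Wt_Unstarved. Every Gcn_Arg library was below every unstarved library and every Wt_Arg library above, with an interaction of -3.32 ± 0.22. Sesn2, a leucine sensor that inhibits mTORC1, was lower by a smaller step, at 238 CPM in Gcn_Arg and 385 CPM in Wt_Arg (-0.69 ± 0.09), and it too opened. Ddit4, another mTORC1 inhibitor, had 26.1, 45.3 and 40.3 CPM in Gcn_Arg, against 130, 148 and 132 CPM in Wt_Arg. Its gap of -1.87 ± 0.18 was wider than the unstarved one of -0.64 ± 0.18.

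Secreted factors moved with the intracellular ones. Gdf15, a stress hormone of the TGF-beta superfamily, had 7.70, 8.13 and 7.45 CPM in Gcn_Arg, against 22, 24.2 and 27.8 CPM in Wt_Arg, and in complete medium 18, 20.6 and 16.2 CPM in Gcn_Unstarved, against 11.3, 10.4 and 13.4 CPM in Wt_Unstarved. Its order thus reversed as that of Ddit3 did, with log2 fold changes of -1.67 ± 0.14 starved and 0.65 ± 0.13 unstarved. Inhbe, an activin subunit, had 0.257, 0.399 and 0.583 CPM in Gcn_Arg, against 8.01, 10.3 and 12.6 CPM in Wt_Arg, and its interaction of -5.22 ± 0.43 was the lowest among the genes named here. Unstarved it had 2.05, 1.89 and 1.76 CPM in Gcn_Unstarved, against 1.74, 1.03 and 1.07 CPM in Wt_Unstarved. That difference of 0.53 ± 0.28 was not called (adjusted p = 0.163 by edgeR). Adm2, a peptide hormone, and Stc2, a secreted glycoprotein, had starved log2 fold changes of -4.50 and -3.68, against -0.92 and -0.86 unstarved. Vegfa, the vascular growth factor, was at 7.73 CPM in Gcn_Arg and 43.7 CPM in Wt_Arg. Fgf21, a metabolic hormone, was near the limit of detection, with 0, 1 and 1 counts in Gcn_Arg, against 18, 35 and 29 counts in Wt_Arg, so no fold change is given.

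Herpud1, which acts in degradation of endoplasmic reticulum (ER) proteins, reversed, with log2 fold changes of -2.54 ± 0.13 starved and 0.54 ± 0.13 unstarved. Gpt2, a mitochondrial alanine aminotransferase, Vldlr, a lipoprotein receptor, and Eif4ebp1, an inhibitor of cap-dependent translation, were lower in both conditions, with gaps that starvation widened to -2.62, -3.34 and -0.77. Tnfrsf10b, a death receptor, and Soat2, a cholesterol esterifying enzyme, were not called, at -0.01 and 0.15. G0s2, an inhibitor of lipolysis that is in no list, opened with values of 0.513, 0.837 and 0.518 CPM in Gcn_Arg, against 5.12, 8.45 and 6.81 CPM in Wt_Arg. With library size alone as the scaling, 14 effectors and 8 ISR transcription factors were lower in Gcn_Arg.

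**Figure D2:**
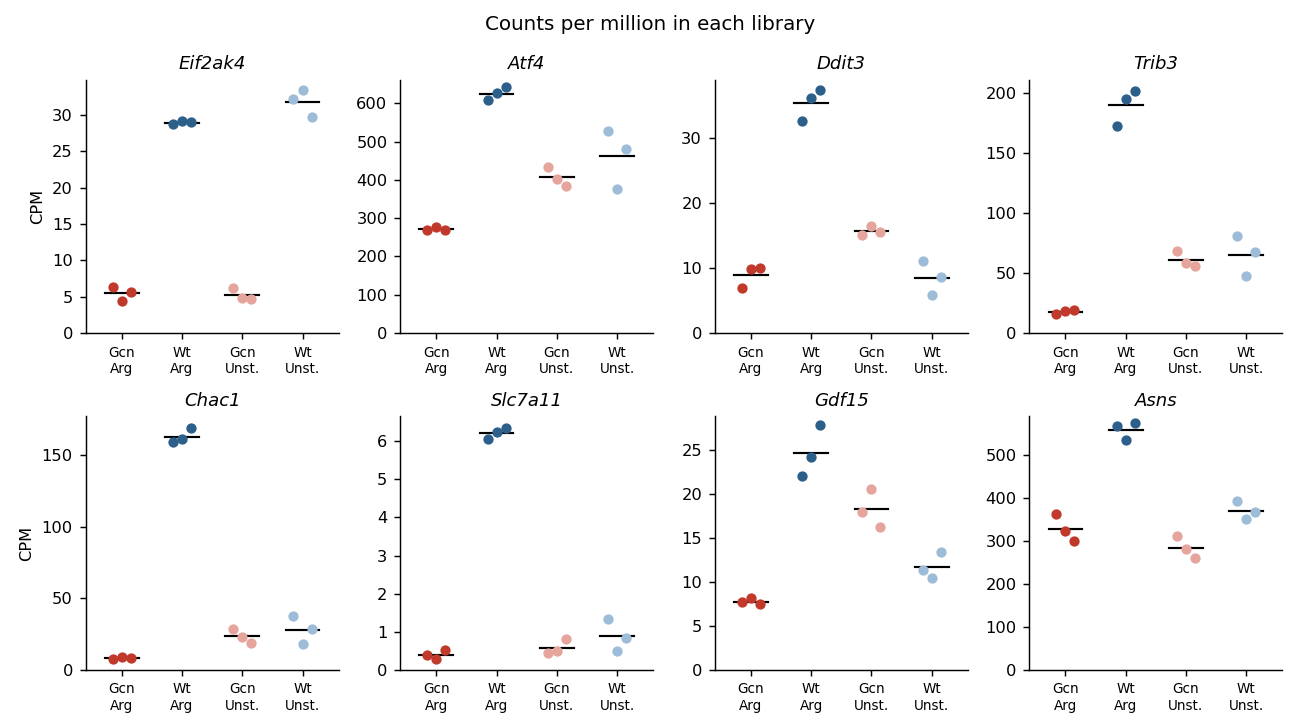
CPM on linear axes from 0 for 8 genes, one panel each; points are the 3 libraries of Gcn_Arg, Wt_Arg, Gcn_Unstarved and Wt_Unstarved, from left to right, and bars are group means. Among the groups shown, Trib3, Chac1 and Slc7a11 stand out in Wt_Arg alone. Ddit3 and Gdf15 exchange their order between conditions, Asns is lower in Gcn in both conditions, and Eif2ak4 is low in every Gcn library.

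Apart from Eif2ak4 itself, the mRNAs of the eIF2 machinery differed by smaller amounts than the targets. Of 16 kinases, phosphatase subunits, GCN2 partners and eIF2 or eIF2B subunits, 11 were lower and 1 higher in Gcn_Arg, with a median log2 fold change of -0.26, and library size scaling left 8 lower and 2 higher. Unstarved, 3 were lower and none higher. Eif2ak4, the deleted gene, is 1 of the 16 and was lower in both conditions. Of the starved calls, 9 are undecided. The lower share over all genes tested was 16.7% starved and 16.2% unstarved. Ppp1r15a, the inducible phosphatase subunit that reverses eIF2 phosphorylation, had 32.2, 31.2 and 26.8 CPM in Gcn_Arg, against 59, 54 and 57.4 CPM in Wt_Arg. It was the member called in the interaction (-0.55 ± 0.14), with an unstarved log2 fold change of -0.36, and that call was lost with library size scaling and in 9 fits that left out a single library. With the block within genotype 6 members were called downward and 1 upward. Ppp1r15b, the constitutive subunit, and Impact, an inhibitor of GCN2, had starved log2 fold changes of -0.45 and -0.50. Of the kinases, Eif2ak1 (HRI) and Eif2ak3 (PERK, on chromosome 6) were slightly lower at -0.22 and -0.26, and Eif2ak2 (PKR) was not called at 0.26.

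Amino acid synthesis genes were lower in Gcn_Arg, and 8 of the 12 that were lower count as already different. Of 18 listed, 12 were lower and 1 higher starved, with a median of -0.67, while 14 were lower and none higher unstarved, with a median of -0.34. The interaction was called downward for 4, Psat1, Shmt2, Mthfd2 and Cth, and upward for 1; it was called downward for 2 with library size alone and for 9 with the block within genotype, and the call of Cth was lost in 8 alternatives. Asns, asparagine synthetase and a standard ATF4 target, had 363, 322 and 300 CPM in Gcn_Arg, against 568, 534 and 574 CPM in Wt_Arg, a log2 fold change of -0.77 ± 0.09. In complete medium it had 311, 281 and 259 CPM in Gcn_Unstarved, against 393, 352 and 367 CPM in Wt_Unstarved, a log2 fold change of -0.39 ± 0.09, and the interaction of -0.38 ± 0.13 was not called (adjusted p = 0.118). Asns thus counts among the genes that already differed, though edgeR called its interaction when replicate number was a block, at an adjusted p of 0.0462, or a block within genotype, at 0.000251, and when every gene was kept, at 0.0315.

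Mthfd2, a mitochondrial folate enzyme, had 148, 140 and 138 CPM in Gcn_Arg, against 468, 470 and 483 CPM in Wt_Arg, the widest gap of the list at -1.74 ± 0.08, of which -0.73 was there unstarved. Cth, which makes cysteine, was at -1.43 starved and -0.87 unstarved. In serine synthesis, Psat1 was at -1.11 starved and -0.66 unstarved, and Phgdh, the first enzyme of that route, was at -0.96 and -0.62, with an interaction not called by the test without a block and called by edgeR with the block within genotype (adjusted p = 0.00272). Asns and Mthfd2 lie on chromosome 6, where Gcn cells were shifted lower as given further on, and without those 2 the list held 10 lower members and a median of -0.53.

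Aminoacyl-tRNA synthetase genes differed more often under starvation than without it. Of 20 cytosolic synthetases, 14 were lower and none higher in Gcn_Arg, with a median of -0.56, against 6 lower and 1 higher unstarved, with a median of -0.04, and 10 were called downward in the interaction. Their summed level was 5680 to 6040 CPM in Gcn_Arg and 8470 to 8930 CPM in Wt_Arg. Nars, for asparagine, had 421, 405 and 384 CPM in Gcn_Arg, against 761, 763 and 787 CPM in Wt_Arg. Gars, for glycine and on chromosome 6, was at -1.12 starved and -0.63 unstarved, and Tars, for threonine, at -0.86 and -0.21. Iars, Lars and Aars, for isoleucine, leucine and alanine, opened, with starved values of -0.74, -0.68 and -0.64. Eprs, for glutamate and proline, reversed, at -0.46 starved and 0.33 unstarved. Rars, which charges the tRNA of the missing amino acid, was not called at -0.16, and Hars, Kars, Qars, Dars and Farsa were not called either, with values between -0.13 and 0.22.

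Amino acid transporters included several genes that were higher in Wt_Arg than in Gcn_Arg and both unstarved groups. Of 20 amino acid carriers, 12 were lower and 1 higher in Gcn_Arg, with a median of -0.55, against 9 lower and 4 higher unstarved with a median of -0.26, and 9 were called downward in the interaction. Slc7a11, the cystine importer, had 0.385, 0.279 and 0.518 CPM in Gcn_Arg, against 6.07, 6.25 and 6.35 CPM in Wt_Arg. All unstarved libraries were at or below 1.34 CPM and did not differ by the test (-0.66 ± 0.32, adjusted p = 0.125). Slc6a9, a glycine carrier, had 4.75, 4.07 and 4.41 CPM in Gcn_Arg, against 36.3, 42.1 and 42.7 CPM in Wt_Arg, and an unstarved log2 fold change of -0.21 that was not called. Slc1a4, a carrier of small neutral amino acids, opened at -2.02 ± 0.17.

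Carriers of arginine itself did not behave alike. Slc7a1, which encodes the cationic carrier CAT-1, had 119, 90.4 and 93.6 CPM in Gcn_Arg, against 246, 265 and 282 CPM in Wt_Arg. Its unstarved libraries overlapped at 139, 125 and 107 CPM in Gcn_Unstarved and 158, 122 and 144 CPM in Wt_Unstarved, and the interaction was -1.19 ± 0.17. Slc7a3, which encodes the related CAT-3, had 238, 266 and 254 CPM in Gcn_Arg and 272, 281 and 285 CPM in Wt_Arg and was not called (-0.15 ± 0.07, adjusted p = 0.121). Slc7a7, which exports cationic amino acids with Slc3a2, was at -1.07 starved and -0.57 unstarved, and Slc7a5, the large neutral carrier, at -1.16 and -0.53. Slc36a1, a lysosomal proton-coupled carrier, was the member that was higher, at 0.36.

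The RefSeq promoter of Chac1, an effector whose difference opened under starvation, holds a match to the composite element known to be bound by ATF4 with C/EBP proteins. It is printed whole, on the gene's strand from 250 bases before the start of transcription to 50 after it (GRCm38.p6, chr2:119350992-119351291, plus strand), with the element TGATGCAA, here on the opposite strand as TTGCATCA, in capitals.

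Chac1: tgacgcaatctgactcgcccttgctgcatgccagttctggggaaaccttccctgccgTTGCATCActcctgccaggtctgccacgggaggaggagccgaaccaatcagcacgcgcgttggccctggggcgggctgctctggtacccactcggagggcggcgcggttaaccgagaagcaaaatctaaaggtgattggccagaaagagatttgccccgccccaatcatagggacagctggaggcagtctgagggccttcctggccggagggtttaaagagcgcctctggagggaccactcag

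The 8 letters TGATGCAA, searched on both strands, stood in the windows of 15 of 169 genes (8.88%) that were lower in Gcn_Arg and also lower in the interaction, against 279 of 27025 genes (1.03%) with any window and 0.713% of the genes tested. Among genes that were already different and lower the share was 1.09%, and among genes not called under starvation it was 0.542%. A window was given for 11508 of the 16909 symbols tested, and a match describes letters only, not a bound site. The looser form TGATGNAAN, which takes in every TGATGCAA with a base after it, stood in 24 of the 169 (14.2%) and in 4.5% of all genes. By list, TGATGCAA was found for 5 of 13 ISR effectors, 3 of 10 ISR transcription factors, 4 of 12 tRNA synthetases and 3 of 15 transporters that had a window. Excerpts from 7 further genes whose starved differences opened, widened or reversed, and from Fgf21, follow with the element in capitals, and Trib3 and Asns are given with the looser form in capitals.

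Atf3: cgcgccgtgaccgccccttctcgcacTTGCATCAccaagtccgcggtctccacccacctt
Slc7a11: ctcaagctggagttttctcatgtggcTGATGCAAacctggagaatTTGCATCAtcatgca
Inhbe: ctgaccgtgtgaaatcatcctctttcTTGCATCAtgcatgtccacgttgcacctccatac
Herpud1: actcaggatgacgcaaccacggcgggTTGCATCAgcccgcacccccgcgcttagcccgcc
Nupr1: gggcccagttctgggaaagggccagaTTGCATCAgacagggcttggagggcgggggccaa
Jdp2: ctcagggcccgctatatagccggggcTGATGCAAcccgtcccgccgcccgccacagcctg
Vldlr: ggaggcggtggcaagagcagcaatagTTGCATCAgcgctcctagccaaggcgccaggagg
Fgf21: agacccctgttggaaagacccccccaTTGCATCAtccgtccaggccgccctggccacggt
Trib3: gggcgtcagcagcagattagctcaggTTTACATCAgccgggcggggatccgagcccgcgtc
Asns: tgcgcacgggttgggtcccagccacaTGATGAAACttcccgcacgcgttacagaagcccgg

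These stretches lie in GRCm38.p6 at chr1:191183410-191183469 for Atf3, chr3:50443646-50443705 for Slc7a11, chr10:127351996-127352055 for Inhbe, chr8:94386291-94386350 for Herpud1, chr7:126625547-126625606 for Nupr1, chr12:85599357-85599416 for Jdp2, chr19:27216794-27216853 for Vldlr, chr7:45615596-45615655 for Fgf21, chr2:152344013-152344073 for Trib3 and chr6:7693198-7693258 for Asns. Herpud1, Jdp2 and Vldlr are on the plus strand and the rest on the minus strand. Slc7a11 was the gene shown with 2 copies.

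Genes of arginine and polyamine metabolism and of amino acid sensing did not separate the starved genotypes as groups. Of 15 arginine and polyamine genes tested, with 3 more below the filter, 3 were lower and 2 higher, with a median of -0.06. Ass1, which makes argininosuccinate from citrulline, had 132, 120 and 103 CPM in Gcn_Arg and 110, 113 and 123 CPM in Wt_Arg, which overlapped (0.04 ± 0.10, adjusted p = 0.787). Arg2, mitochondrial arginase, was higher at 3.37 CPM in Gcn_Arg and 1.27 CPM in Wt_Arg, as it was unstarved (1.39 and 1.64 on the log2 scale). Gatm, of creatine synthesis, and Paox, a polyamine oxidase, were lower in both conditions, at -0.76 and -0.66 starved. Smox, a spermine oxidase, opened upward, at 0.34 starved and -0.14 unstarved.

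Among 27 genes of amino acid sensing upstream of mTORC1, 4 were lower and 3 higher in Gcn_Arg, shares no larger than those over all genes, with a median of 0.01 that turned negative without the 3 Gcn libraries numbered 1. Castor1, an arginine sensor that inhibits mTORC1, was lower starved (25.5, 27.7 and 28.3 CPM in Gcn_Arg, against 35.1, 31.5 and 32.6 CPM in Wt_Arg) and unstarved, with log2 fold changes of -0.29 and -0.28. Mios and Sec13, subunits of the GATOR2 complex, were the others lower in both conditions, at -0.56 and -0.30, and both lie on chromosome 6. Seh1l, of the same complex, was lower at -0.23, and Wdr24, Sesn1 and Rragb were higher at 0.32, 0.33 and 0.22. Mtor, Rptor, Tsc1, Tsc2 and Rheb, the kinase, its partner and their upstream switch, were not called, with values between -0.15 and 0.14.

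Lysosomal genes counted 4 higher and 4 lower of 23, and autophagy genes 4 higher and 5 lower of 22. Shares over all genes tested were 14.8% higher and 16.7% lower. The list medians were -0.04 and 0.00, and both changed sign under at least 1 other scaling or library set. Mitf, a regulator of lysosomal genes on chromosome 6, was higher at 20.3 CPM in Gcn_Arg and 10.6 CPM in Wt_Arg, and Ctsl, cathepsin L, was lower at 284 and 492 CPM, both to about the same degree unstarved. Sqstm1, the autophagy receptor p62, was at -0.44 starved and -0.19 unstarved, and Gabarapl2, an Atg8-family protein, at 0.44 and 0.21, and the unstarved values were not called. Atg7, on chromosome 6, was lower in both conditions.

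More ER chaperone genes were higher than lower in Gcn cells, and more were called without starvation than with it. Of 20 genes, 9 were higher and 1 lower in Gcn_Arg, with a median of 0.15, against 16 higher and none lower unstarved, with a median of 0.46. Without the Gcn libraries numbered 1 the starved counts were 7 higher and 2 lower. The interaction was called downward for 3, Pdia4, Canx and Atf6, and for 10, with 1 upward, when the block within genotype was used. Hyou1, an ER chaperone of the HSP110 class, had 522, 433 and 412 CPM in Gcn_Arg, against 243, 232 and 279 CPM in Wt_Arg. Sdf2l1, a cochaperone, had 52.2, 59.9 and 50.5 CPM in Gcn_Arg, against 27.6, 26.7 and 28.5 CPM in Wt_Arg. For both, all Gcn libraries were above all Wt libraries, by 0.86 and 0.98 on the log2 scale starved and by 0.54 and 0.69 unstarved. Hspa5, the main ER chaperone BiP, had a log2 fold change of 0.00 starved and was called higher unstarved at 0.53, and its interaction was called by edgeR with the block within genotype (adjusted p = 0.00297) but not without it. Atf6, an ER stress sensor, was the member that was lower, at 31.4 CPM in Gcn_Arg and 48.4 CPM in Wt_Arg, and it opened.

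**Figure D3:**
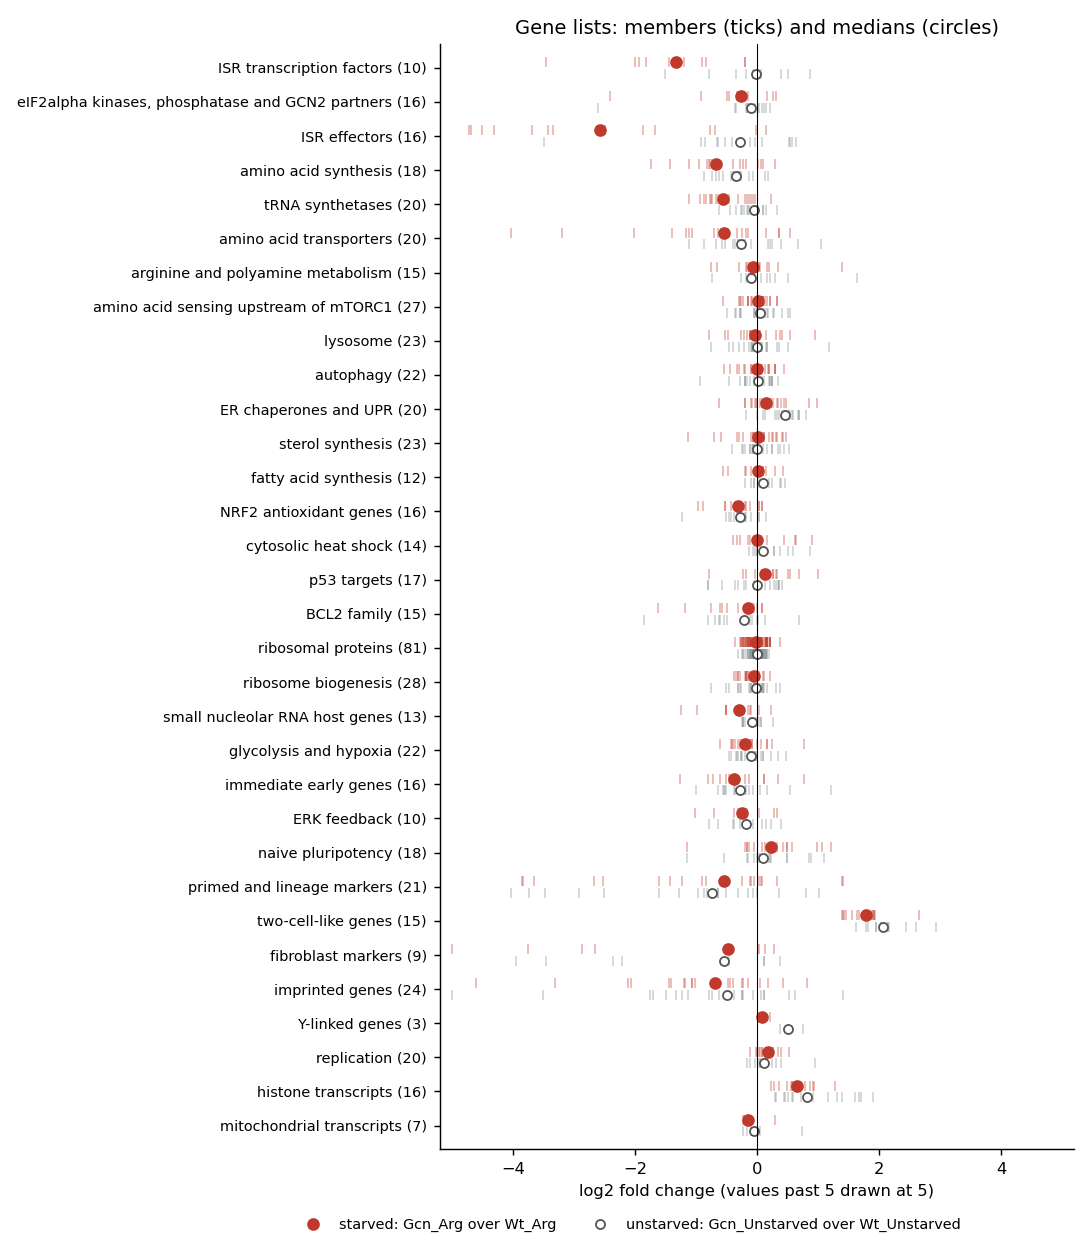
The 32 gene lists with the number of members tested in brackets; ticks are the log2 fold changes of single members and circles the list medians, filled for Gcn_Arg over Wt_Arg and open for Gcn_Unstarved over Wt_Unstarved. The starved medians of ISR effectors (-2.58), ISR transcription factors (-1.32) and tRNA synthetases (-0.56) lie well left of their unstarved ones, while two-cell-like genes and primed and lineage markers have both medians to the same side.

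Several of the widest starved differences were about as wide without starvation. Krt8 and Krt18, keratins of simple epithelia, were at 7.24 and 4.88 CPM in Gcn_Arg, against 91.2 and 70.9 CPM in Wt_Arg. Krt8 had 7.87, 7.18 and 6.68 CPM in Gcn_Arg, against 103, 86.5 and 84.6 CPM in Wt_Arg, and 9.62, 9.62 and 8.70 CPM in Gcn_Unstarved, against 114, 97.5 and 97.1 CPM in Wt_Unstarved. The log2 fold change was -3.65 ± 0.11 starved and -3.46 ± 0.10 unstarved, and the interaction was not called. Krt19, a further keratin, Tagln, an actin-binding protein of smooth muscle, and Acta1, skeletal actin, had starved log2 fold changes of -4.05, -3.89 and -4.18. Wnt4, a signaling ligand, Prss23, a serine protease, and Gbp2, an interferon-induced GTPase, had -4.29, -4.0 and -4.23, and the predicted gene 9130008F23Rik had -4.48. The unstarved log2 fold changes of these 7 genes lay between -4.66 for Gbp2 and -3.85 for Tagln.

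Imprinted genes were lower as a group: 15 of 24 tested were lower and 2 higher in Gcn_Arg, with a median of -0.70, against 14 lower and 2 higher unstarved. H19, a maternally expressed noncoding RNA, had 1.33, 2.15 and 1.36 CPM in Gcn_Arg, against 31.8, 37.2 and 51.4 CPM in Wt_Arg, and Igf2, its paternally expressed neighbor, had 0.556, 0.279 and 0.907 CPM in Gcn_Arg, against 5.12, 4.81 and 6.23 CPM in Wt_Arg. Peg10, a retrotransposon-derived gene on chromosome 6, was at 136, 116 and 136 CPM in Gcn_Arg, against 570, 538 and 518 CPM in Wt_Arg, and Nnat, a brain-enriched proteolipid gene, had a log2 fold change of -2.12. None of these 4 was called in the interaction, whereas Mest, on chromosome 6, and Slc38a4, an amino acid carrier, were; with the block within genotype Peg10 was called as well (adjusted p = 0.00188 by edgeR). Of the 24, 4 lie on chromosome 6, and 12 lower members remain without them.

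More naive pluripotency genes were higher than lower, and more lineage genes were lower than higher, in Gcn_Arg. Of 18 naive pluripotency genes, 9 were higher and 1 lower in Gcn_Arg, with a median of 0.23. The unstarved counts were 6 higher and 2 lower, with a median of 0.10. Tbx3 had 381, 363 and 335 CPM in Gcn_Arg, against 153, 157 and 154 CPM in Wt_Arg, and Nanog, which lies on chromosome 6, had 562, 533 and 589 CPM in Gcn_Arg, against 277, 286 and 291 CPM in Wt_Arg. Both are transcription factors of the naive state, and their unstarved gaps were 1.10 and 0.85 on the log2 scale, near the starved 1.22 and 0.98. Prdm14, a repressor of differentiation, was higher by 1.06, and Dppa3, a maternal factor on chromosome 6, was the member that was lower, with a log2 fold change of -1.15. Of 21 primed and lineage markers 10 were lower and 2 higher, and all 12 calls count as already different. The unstarved counts were 12 lower and 2 higher. T and Cdx2, of mesoderm and trophectoderm, were at -3.83 and -2.68 starved, and Otx2 and Sox1, of epiblast and neural cells, at 1.41 and 1.39. In bulk libraries, fewer cells of a type and less RNA per cell cannot be told apart.

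Two-cell-like genes, normally expressed at zygotic genome activation and in a small fraction of stem cells, were higher in Gcn cells. All 15 that passed the filter, of 18, were called higher starved and also unstarved, with medians of 1.78 and 2.06. Their summed level was 72.2 to 109 CPM in Gcn_Arg and 21.4 to 30.4 CPM in Wt_Arg. Tmem92 had 8.68, 6.30 and 8.68 CPM in Gcn_Arg, against 1.13, 1.07 and 1.57 CPM in Wt_Arg. Zscan4e, Tcstv3 and Tdpoz4 were higher by 1.94, 1.92 and 1.92, but they belong to families of near-identical copies whose reads the counting could split. Among the genes with the largest increases, Pnma5 and Xlr3c of the X chromosome were at 79.8 and 27.4 CPM in Gcn_Arg, against 11.3 and 5.45 CPM in Wt_Arg, and Slfn9, a Schlafen family gene, at 17.2 CPM in Gcn_Arg and 3.55 CPM in Wt_Arg. A2m, a protease inhibitor on chromosome 6, was higher by 2.20 ± 0.44, with 18.9 CPM in Gcn_Arg replicate 1 and 6.22 and 6.61 CPM in the other Gcn_Arg libraries, and its call was lost when only the groups compared were fitted (adjusted p = 0.0539 by edgeR). The rest of the 12 highest were predicted genes named only by Gm or Rik symbols.

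**Figure D4:**
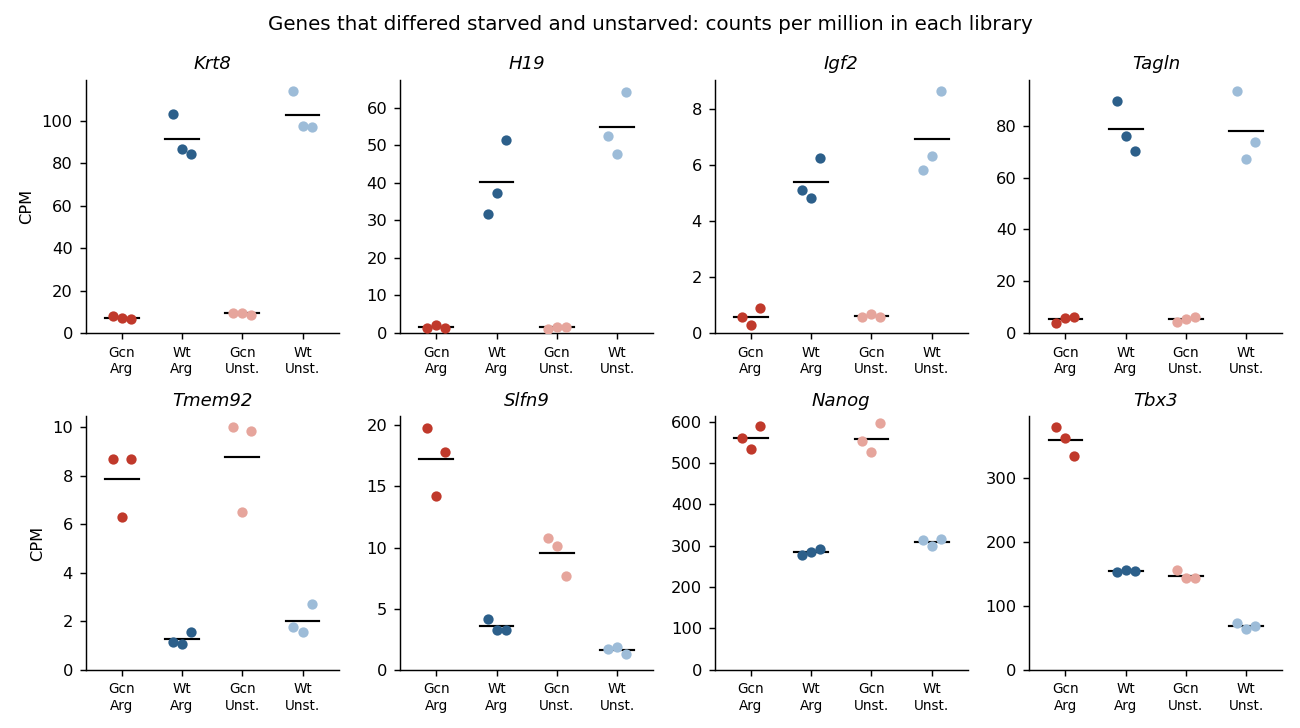
CPM on linear axes from 0 for 8 genes; points are the 3 libraries of Gcn_Arg, Wt_Arg, Gcn_Unstarved and Wt_Unstarved, from left to right, and bars are group means. Krt8, H19, Igf2 and Tagln are low in every Gcn library and Tmem92, Slfn9, Nanog and Tbx3 are higher in Gcn than in Wt within each condition.

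Fibroblast markers were low, with a summed level of 52.6 to 65.8 CPM in Gcn_Arg and 66.8 to 79.4 CPM in Wt_Arg, and 3 of 12 were below the filter. Of the 9 tested, 5 were lower and none higher in Gcn, starved and unstarved alike, and the rest were not called. The median log2 fold change was -0.47 starved and -0.54 unstarved, or -0.22 and -0.50 without chromosome 6. The genes named next are among the widest of the list. Col1a1 was at 1.55 CPM in Gcn_Arg and 9.92 CPM in Wt_Arg and was lower in Gcn unstarved too, as were Col1a2, on chromosome 6, and Col3a1. Twist2 had 0 counts in every Gcn_Arg library and 0.424, 0.520 and 0.459 CPM in Wt_Arg. The part of such cells in the other results was not tested.

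Stress and metabolic lists other than the ISR gave smaller differences. Of 16 NRF2 antioxidant genes, 9 were lower and none higher starved, against 11 and none unstarved, led by Hmox1, heme oxygenase, with 126, 144 and 134 CPM in Gcn_Arg, against 271, 258 and 262 CPM in Wt_Arg. Of 15 BCL2 family genes, 7 were lower and none higher starved, against 6 lower and 1 higher unstarved. All genes tested gave 14.8% higher and 16.7% lower starved, and 16.6% and 16.2% unstarved. Hrk, a BH3-only death gene, reversed, with 16.2, 17 and 12.4 CPM in Gcn_Arg, against 28.5, 38.1 and 37.3 CPM in Wt_Arg, and 8.54, 8.28 and 7.56 CPM in Gcn_Unstarved, against 5.50, 4.04 and 5.54 CPM in Wt_Unstarved. With starvation Hrk rose by 0.91 in Gcn cells and by 2.78 in Wt cells on the log2 scale. Bcl2, Bok and Bcl2l11, the last encoding BIM, had starved log2 fold changes of -1.62, -0.75 and -0.61 and unstarved ones of -1.85, -0.70 and -0.80.

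Of 17 p53 target genes, 5 were higher and 1 lower, against 3 higher and 5 lower unstarved, and 3 were called upward in the interaction, or 6 with the block within genotype. Ei24, a p53-induced ER protein, opened, with 187, 214 and 189 CPM in Gcn_Arg, against 115, 125 and 125 CPM in Wt_Arg, while its unstarved libraries overlapped. Perp, a desmosomal p53 target, had a log2 fold change of -0.79, and Fas and Rrm2b were higher by 0.99 and 0.54. Heat shock genes counted 3 higher and 3 lower of 14 starved, against 4 higher and none lower unstarved. Among all genes tested the shares were 14.8% higher and 16.7% lower starved, and 16.6% and 16.2% unstarved. Dnajb1, a cochaperone of HSP70, was higher by 0.61, Bag3 by 0.44 and the barely expressed Hspa1a by 0.90, and Hspd1, the mitochondrial chaperonin, had -0.39.

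Sterol synthesis genes counted 4 higher and 5 lower of 23 and fatty acid synthesis genes 1 higher and 2 lower of 12, all near the shares over all genes or below them. Cyp51, an enzyme of cholesterol synthesis, had a log2 fold change of -0.59. Acaca, acetyl-CoA carboxylase, and Acsl3, an acyl-CoA synthetase, had -0.56 and -0.48, and Acss2, acetyl-CoA synthetase, 0.42. Of 22 glycolysis and hypoxia genes, 8 were lower and 1 higher, but 3 of the 8 lie on chromosome 6, which leaves 5. Without starvation 7 were lower and 1 higher, and 6 of the starved calls count as already different. The lower share over all genes tested was 16.7% starved and 16.2% unstarved. Hk2, hexokinase 2 on that chromosome, had a log2 fold change of -0.60, Pfkfb3 and Ldha had -0.43 and -0.41, and Aldoc, a brain aldolase, had 0.77.

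Immediate early genes counted 7 lower and 2 higher of 16, and ERK feedback genes 5 lower and 2 higher of 10, with the same counts unstarved. Across all genes tested, 16.7% were lower and 14.8% higher starved, and 16.2% and 16.6% unstarved. Myc, a growth-promoting transcription factor, was at 38.3 CPM in Gcn_Arg and 62.8 CPM in Wt_Arg, Junb at 45.6 and 69.5 CPM, and Egr1 was higher at 45.2 and 26.6 CPM. Fosb was at most at 1.17 CPM in the starved libraries, with a log2 fold change of -1.26. Spry1 and Etv4, an inhibitor and an effector of ERK signaling, had log2 fold changes of -1.01 and -0.70, Spred1 had -0.38 and Etv5 had 0.32.

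Ribosome genes differed little: 2 of 81 ribosomal protein genes, Rps7 and Rpl4, were lower, at -0.26 and -0.24, and none was higher, and without the Gcn libraries numbered 1 the count was 4 higher and 1 lower. Of 28 ribosome biogenesis genes, 8 were lower and 1 higher, among them Nolc1, Ncl, Polr1c and Wdr12, at -0.38, -0.35, -0.32 and -0.31. Without starvation 7 were lower and 2 higher, but 1 of the starved calls counts as already different and 8 are undecided. Lower calls made up 16.7% of all genes tested starved and 16.2% unstarved. Of 13 small nucleolar RNA host genes tested, 4 were lower, with log2 fold changes of -1.25 for Snhg5, -0.98 for Snhg1 and -0.51 for both Snhg12 and Snhg17. In complete medium 2 of the 13 were lower and none higher. Snhg1 had 91.7, 116 and 110 CPM in Gcn_Arg, against 202, 239 and 183 CPM in Wt_Arg, and opened. These noncoding RNAs carry small nucleolar RNAs in their introns.

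Of 20 replication genes, 7 were higher and none lower, against 3 and none unstarved, and library size scaling gave 12 starved. Higher calls made up 14.8% of all genes tested starved and 16.6% unstarved. They were led by Cdc6, a licensing factor, at 98.5 CPM in Gcn_Arg and 68.8 CPM in Wt_Arg, followed by Gins1, Pola1 and Gins2 at 0.39, 0.35 and 0.26. Of 16 histone transcripts tested, which are poorly captured by poly(A) selection, 6 were higher, among them Hist1h3b, Hist1h4h, Hist1h4i and Hist1h2ae by 1.28, 0.79, 0.72 and 0.59. The summed level of these transcripts was 71.8 to 91.6 CPM in Gcn_Arg and 49 to 54.1 CPM in Wt_Arg. Without starvation 9 of the 16 were higher and none lower, with a median of 0.82 against 0.65 starved. Their summed level was then 45.8 to 55.8 CPM in Gcn_Unstarved and 27.6 to 38.3 CPM in Wt_Unstarved. By edgeR, 0 of 7 mitochondrial transcripts and 0 of 3 Y-linked genes were called starved, as by DESeq2 and limma-voom, while 0 and 1 had an unadjusted p under 0.05. All 3 Y-linked genes of the list were higher unstarved, and 2 were called downward in the interaction, or 1 with library size scaling. Of 4 genes on chromosome Y with at least 5 CPM, 1 was lower starved and 1 lower unstarved.

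Upward interactions were fewer than downward ones, an order that turned with library size scaling, and of those of at least 1 on the log2 scale 9 were upward and 61 downward. Abtb2, a BTB-domain protein gene, had 9.62, 11 and 8.68 CPM in Gcn_Arg, against 5.08, 4.90 and 5.32 CPM in Wt_Arg, while the unstarved libraries overlapped. Aldh1b1, a mitochondrial aldehyde dehydrogenase, opened at 1.3 ± 0.16, and Sox21, a transcription factor, widened to 1.70 ± 0.14 with 58.2, 72 and 61.8 CPM in Gcn_Arg, against 23.6, 17.5 and 18 CPM in Wt_Arg. Id1, an inhibitor of bHLH factors, reversed: it had 88.5, 104 and 103 CPM in Gcn_Arg, against 78.8, 74.2 and 76.1 CPM in Wt_Arg, and 87.8, 112 and 128 CPM in Gcn_Unstarved, against 156, 132 and 165 CPM in Wt_Unstarved. Prx, Snrnp35 and the pseudogene Gm8518 reversed likewise, at 0.46, 0.37 and 0.48 starved, and Dynlt1-ps1, a pseudogene on chromosome 6, opened at 0.86. Leaving out at least one single library removed the interaction call of Aldh1b1, Gm8518, Dynlt1-ps1, Snrnp35, Sox21, Smox, Ei24, Ppp1r15a, Cth, Hmox1, Ddit4 and Gars.

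Chromosome 6 stood apart from the rest of the genome. Of its 480 genes with at least 5 CPM, 237 (49.4%) were lower in Gcn_Arg and 24 (5.0%) higher, with a median log2 fold change of -0.257. On the other 18 autosomes the medians ran between -0.030 and 0.074 and 11.8% to 21.9% of genes were lower. The shift was there without starvation, with a median of -0.242 and 46.9% lower, and the median interaction on the chromosome was -0.031. In windows of 20 Mb along the chromosome the starved medians lay between -0.276 and -0.223 and the unstarved ones between -0.306 and -0.13. In single libraries, the chromosome's median deviation from the other autosomes was -0.123 to -0.085 in Gcn_Arg and 0.126 to 0.148 in Wt_Arg, and no Gcn library of any treatment overlapped a Wt library. The genes named above that lie on it include Asns, Mthfd2, Gars, Eif2ak3, Mios, Sec13, Atg7, Hk2, Peg10, Mest, Dppa3, Nanog, Mitf, A2m, Col1a2 and Dynlt1-ps1. Its part in the values of the genes on it was not tested.

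**Figure D5:**
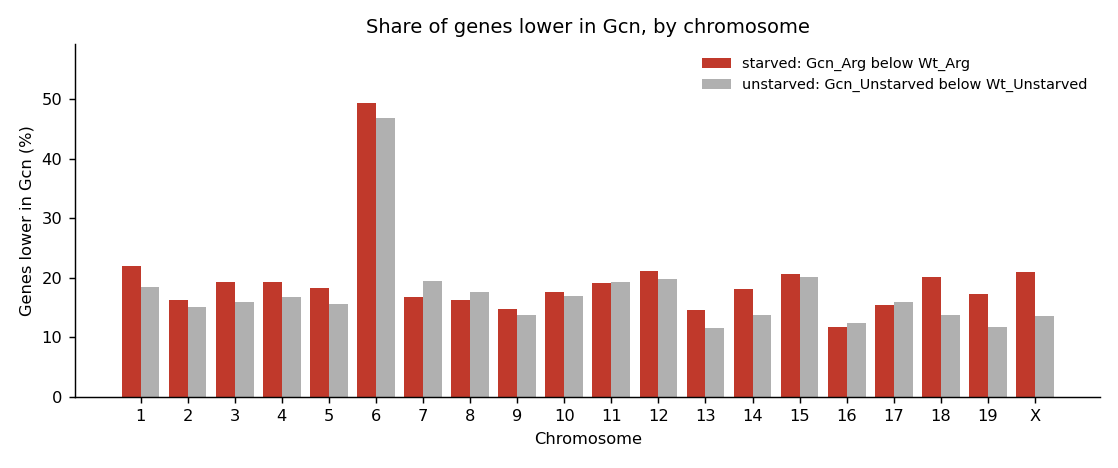
Percentage of genes with at least 5 CPM that were called lower in Gcn on each autosome and the X chromosome; bars start at 0, the left bar of each pair is Gcn_Arg against Wt_Arg and the right one Gcn_Unstarved against Wt_Unstarved. Chromosome 6 reaches 49.4% and 46.9%, and no other chromosome exceeds 21.9%.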

How the data were processed

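The deposited tables hold raw read counts per Ensembl gene, 1 table per genotype. Per the submitters' processing notes, the tools named include STAR 2.7.4a and HTSeq with GRCm38; the notes give no role, and how the counting treated strand is not given in the sources used here. Per the labels, poly(A) RNA was made into directional libraries and sequenced in pairs on 1 flow cell. The counts of both genotypes were joined by gene identifier and scaled together by TMM. Genes passing filterByExpr were fitted in edgeR 4.0.16 (quasi-likelihood, robust) over 6 groups and 18 libraries, with Benjamini-Hochberg adjustment over all genes tested and a threshold of 0.05. Fold changes are Gcn over Wt, or starved over unstarved, and SE is the absolute log2 fold change over the root of F. CPM are computed here from the deposited counts. The authors' normalized tables were not used.

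Named genes are the 12 highest and 12 lowest log2 fold changes among starved calls whose libraries do not overlap and whose higher group averages at least 5 CPM; the 8 highest and 8 lowest interactions among genes called in both, with at least 5 CPM in the highest of the 4 groups; up to 4 called members of each of 32 lists with the largest absolute change; and a set of ISR and arginine genes named whatever their values. Other list members, neighbors of Eif2ak4 and promoter examples were named after their values were seen. Some genes are not reported here. Members and lists were chosen with earlier results of these data known. Replicates all differed beyond sampling noise (chi-square per degree of freedom 7.5 to 35.7). Gene symbols and coordinates came from GENCODE annotation of GRCm38, which named 55230 of 55471 identifiers, and promoter sequences from RefSeq. The fit was tested on simulated data. Alternatives were DESeq2 1.42.0, limma-voom 3.58.1, other scalings and filters, a replicate block, over all libraries or within genotype, and leaving out libraries.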

Additional observations from a re-analysis of the deposited data

Results flagged for a closer look

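For 40 of the named genes the genotype difference under arginine starvation departed from that in complete medium by the test of the difference itself, the interaction term of edgeR at an adjusted p under 0.05. Values are log2, starved minus unstarved, so that a negative one means that Gcn cells were lower relative to Wt cells with starvation. Among ISR transcription factors and effectors they were -1.02 for Atf4, -1.94 for Atf3, -2.87 for Ddit3, -1.59 for Cebpb, -1.89 for Nupr1, -4.03 for Chac1, -3.32 for Trib3, -2.31 for Gdf15, -3.58 for Adm2, -3.08 for Herpud1, -0.66 for Sesn2 and -1.24 for Ddit4, and for Ppp1r15a the value was -0.55. For amino acid synthesis, tRNA charging and uptake they were -1.01 for Mthfd2, -0.56 for Cth, -0.44 for Psat1, -0.49 for Gars, -0.59 for Nars, -0.65 for Tars, -3.36 for Slc7a11, -2.99 for Slc6a9, -1.66 for Slc1a4 and -1.19 for Slc7a1. Inhbe, also an ISR effector, gave -5.22. Other genes with a lower difference gave -3.95 for G0s2, -0.73 for Atf6, -0.47 for Hmox1, -1.87 for Hrk, -1.0 for Snhg5 and -1.01 for Snhg1. Upward differences were 1.15 for Abtb2, 1.0 for Dynlt1-ps1, 0.91 for Aldh1b1, 0.89 for Gm8518, 0.89 for Sox21, 0.83 for Id1, 0.75 for Prx, 0.75 for Snrnp35, 0.48 for Smox and 0.55 for Ei24. The calls of 12 of these genes were lost when at least one single library was left out, and that of Hmox1 was lost in 14 alternatives, with adjusted p up to 0.161 by edgeR.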

How the results depend on the processing

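The starved count of 5330 genes ranged between 4872 (only the groups compared) and 5712 (replicate block) over the alternatives, and between 4273 and 4826 when 1 library was left out; the shared count of 3197 was then between 2732 and 3092. The interaction count of 390 was less stable: DESeq2 gave 781 and testing without a filter on low counts 777, and leaving out 1 library gave 187 to 525. It moved by over 1.5 times without Gcn_Arg replicate 2 (195), Gcn_Unstarved replicate 1 (254) or Gcn_Unstarved replicate 2 (187). It did so too without Wt_Arg replicate 1 (245), 2 (209) or 3 (236), and without Wt_Unstarved replicate 1 (248) or 3 (223). These fits hold fewer samples, but so do those without Gcn_Arg replicate 1 (525) or Wt_Unstarved replicate 2 (438), where the count rose. The cause of these and the other moves was not tested. Across genotypes, deviations of same-numbered Gcn_Arg and Wt_Arg libraries correlated at -0.0957, 0.126 and -0.149. Deviations are from means of 3 libraries, so such correlations are tied together. They cannot decide whether replicate numbers pair libraries across genotypes. A block on replicate number over all libraries gave 5712 starved, 540 interaction and 3412 shared calls. Within a genotype same-numbered libraries correlated at 0.448, 0.194 and 0.18 between Gcn_Arg and Gcn_Unstarved and 0.2, 0.096 and 0.201 between Wt_Arg and Wt_Unstarved. Differently numbered pairs gave -0.354 to 0.217 between Gcn_Arg and Gcn_Unstarved and -0.164 to -0.0296 between Wt_Arg and Wt_Unstarved. The 0.217, of Gcn_Arg 2 with Gcn_Unstarved 3, exceeded the same-numbered 0.194 of Gcn_Arg 2. Across genotypes, Gcn_Arg 1 with Wt_Arg 3 gave 0.231. The pairing within genotype is thus a weak hint from the data, not the labels. The replicate block within genotype, chosen after seeing this, gave 2505 interaction calls, 8000 in Gcn_Arg against Gcn_Unstarved and 7990 in Wt_Arg against Wt_Unstarved; of the named genes tested in the interaction, Asns and Slc7a3 gained a call and none lost one. Named-gene values that changed sign were not called: Ass1 starved was -0.0297 without the 3 Gcn libraries numbered 1 and between -0.0389 and 0.1284 leaving out 1 library; its interaction was 0.0603 with library size alone and between -0.1073 and 0.0599 leaving out 1. The interaction of Fgf21 was 1.3128 without those 3 and between -2.3387 and 0.7076 leaving out 1. That of Castor1 was 0.0004 with at least 1 CPM in at least 3 libraries, 0.0829 with library size alone, 0.0131 without those 3 and between -0.0496 and 0.042 leaving out 1. Of 152 called named genes 135 kept direction and call under every alternative run, as did 28 of 40 called in the interaction. The starved calls that did not included those of A2m, Gm8518, Id1, Snrnp35, Sesn1, Acss2, Hspa1a, Fas, Rrm2b, Rps7, Wdr12, Pola1, Gins2, Hist1h3b and Hist1h4h. Of 994 list counts 92 moved by over 1.5 times. Leaving chromosome 6 out of the lists was chosen after seeing the data. With 3 libraries a group and genes near 1 CPM, small differences were not detectable.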
